A study of Mus musculus with 7 samples.

Results

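Genes of heme synthesis and iron transport were followed in mouse bone marrow LSK cells with and without Lkb1. The 9 genes are Alas1, Alad, Uros, Urod, Cpox, Ppox and Fech, which encode 7 of the enzymes of heme synthesis, and Tfrc and Slc40a1, which encode the main receptor for iron uptake and the iron exporter ferroportin. Every probe set whose single gene symbol in the platform annotation was one of these names was taken. That gave 21 of the 22690 probe sets on the arrays, and all 9 genes were among the 8077 genes tested.

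LSK cells are marrow cells without the surface markers of mature blood lineages and with Sca-1 and c-Kit at the surface, a fraction in which blood stem cells are enriched. RNA of 7 samples was measured, 1 array per sample. The 4 Lkb1 KO samples (numbers 4 to 7) came from Lkb1 L/L mice that also carried rosa26CreERT2, a Cre recombinase driven by a promoter active in most cell types and switched on once tamoxifen is given. The 3 Lkb1 WT samples (numbers 5 to 7) came from Lkb1 L/L mice without Cre, so Cre activity and loss of Lkb1 cannot be told apart. Both groups were of the C57BL/Ka-CD45.2:Thy-1.1 strain and both received tamoxifen for 5 days. Cells were sorted 1 day later, 15000 to 20000 per sample, and about 10 ng of RNA was amplified before labelling. Age was not given. Whether each sample was its own mouse is not stated, and the p-values rest on the variation among these 7 samples, which may be technical.

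Heme is built by a chain of enzymes that begins in the mitochondrion, where ALAS1 joins glycine and succinyl-CoA in the step that limits the rate in most cells. The chain then passes through the cytosol and returns to the mitochondrion, where ferrochelatase inserts iron into protoporphyrin. Iron enters cells with transferrin through the transferrin receptor and leaves through ferroportin. Messenger RNAs of both transport genes are bound by iron regulatory proteins when iron is short, which stabilises the Tfrc message and represses translation of the Slc40a1 message. In the marrow, erythroid precursors are the largest users of iron and macrophages that clear old red cells are its main recyclers.

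Among the 9 genes, Slc40a1 was lower in the KO samples and passed the threshold, and Alas1 was higher without passing it. The other 7 genes lay close to the WT level at their brightest probe sets, while a dimmer Ppox probe set differed by -0.71. The KO minus WT difference was -0.82 ± 0.14 (SE) on the log2(signal + 16) scale for Slc40a1 and 0.41 ± 0.11 for Alas1. With limma and Benjamini-Hochberg adjustment over 8077 genes at a threshold of 0.05, 0 of the 9 genes were called higher and 1 of 9, or 11.1%, was called lower. Over all genes tested, 2.46% were called higher and 2.95% lower. The KO and WT samples did not overlap for 3 of the 9 genes, or 33.3%, against 24.1% of all genes. The median difference was -0.02 for the 9 genes and -0.02 for all genes. With so few genes, 1 call is not a result about the group as a whole.

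Each array's signals as deposited were brighter in the KO samples, with trimmed means (2% left out at each end) of 360 to 426 in KO and 229 to 341 in WT. The signals were therefore put on a common distribution by quantile normalization, and changes are relative to the median gene, which lay 0.34 log2 units higher in KO in the deposited signals. The ratio of the Actb 3′ to 5′ signals, a measure of how far the amplified RNA was shortened, also separated the groups, at 11.4 to 12.3 in KO and 12.6 to 13.1 in WT. Stk11, the gene of LKB1, had log2 levels at its brighter probe set of 6.84 ± 0.33 (SD, n = 4) in the KO samples and 7.40 ± 0.24 (SD, n = 3) in the WT samples, with limma's adjusted p = 0.117. Its dimmer probe set was above the background signal of 13.64 in 3 of 4 KO samples and 1 of 3 WT samples, and whether either probe set lies in the deleted part is not known here. Kit, the gene of c-Kit, was above background on all 7 arrays. So were Cd34 and Flt3, which are not part of the definition of LSK cells. Ly6a, the gene of Sca-1, was not analysed here.

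Alas1, whose product makes the first precursor of the pathway, had deposited signals of 823.1, 945.9, 700.5 and 760.4 in KO samples 4 to 7 and of 566.2, 437.7 and 349.9 in WT samples 5 to 7. After quantile normalization its log2 levels were 9.40, 9.70, 9.42 and 9.55 in KO and 9.20, 8.99 and 9.12 in WT. The lowest KO sample was above the highest WT sample on both scales. The means were 9.52 ± 0.14 (SD, n = 4) and 9.10 ± 0.11 (SD, n = 3), a 1.33-fold difference with a 95% interval of 0.16 to 0.66 log2 units. The adjusted p was 0.063 with limma, which missed the threshold, and a two-sided exact permutation test over the samples gave 0.0286, the smallest value it can give. Alas1 passed the threshold with the signals as deposited, where the difference was 0.83 and limma's adjusted p 0.011. That difference includes the brightness shift, which was 0.34 for the median gene. With median centring Alas1 also passed, at 0.57 and 0.0297. It was called in 0 of the 7 fits that left out 1 sample, with limma's adjusted p between 0.0912 and 0.158. With the sample number as a block limma's adjusted p was 0.127, and with the Actb ratio as a covariate it was 0.53. The Actb ratio separated the groups, so that fit could hardly split it from genotype, and it called 0 of all 8077 genes.

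Alas1 has a second probe set, 1455282_x_at, whose name marks probes that can match other transcripts too. Its log2 levels were 7.01, 7.34, 7.02 and 6.98 in KO and 6.82, 7.02 and 7.20 in WT. The groups overlapped, the difference was 0.07 with a 95% interval of -0.25 to 0.40, and the exact permutation p was 0.657. When both probe sets of each gene were averaged, the Alas1 difference was 0.24 and limma's adjusted p 0.218.

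The sequence before the Alas1 start is shown because this gene is the entry point of the pathway and the enzyme gene with the lowest p. RefSeq (GRCm38.p6) lists 2 starts for Alas1, on the minus strand of chromosome 9. The first line gives the 250 bases before the outer start, at chr9:106247955-106248204, 5′ to 3′ along the gene, with a match to the SP1 GC box (GGGCGG, searched on both strands) in capitals. The other lines give the stretches around the matches to the NRF1 motif (searched on both strands) before the inner start, at chr9:106247938-106247961 and chr9:106247909-106247932, with the match in capitals. NRF1 is a transcription factor of nuclear genes for mitochondrial proteins.
Alas1 outer start: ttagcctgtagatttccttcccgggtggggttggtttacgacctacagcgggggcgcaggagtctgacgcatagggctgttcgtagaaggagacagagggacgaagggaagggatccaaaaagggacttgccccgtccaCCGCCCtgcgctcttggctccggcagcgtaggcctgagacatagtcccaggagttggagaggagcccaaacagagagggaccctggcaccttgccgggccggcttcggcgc
Alas1 inner start, match 1: tcggcgcGCGCGTGCGCgcggcag
Alas1 inner start, match 2: acccaagGCGCATGCGCggcggtc
The GC box match begins 111 bases before the outer start. Both NRF1 stretches lie within 231 bases before the inner start. Of 32851 windows of 250 bases before listed mouse starts, 32.7% held the GC box letters and 3.74% the NRF1 motif. The table held 11 windows for 7 of the 9 genes, and 6 of these had a GC box match, 2 an NRF1 match, 4 an E-box (CACGTG, either strand; 6.02% of all windows) and 2 the GATA letters (GATAA, either strand; 22.6%). A match describes the letters and is not evidence of binding in these cells.

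**Figure D1:**
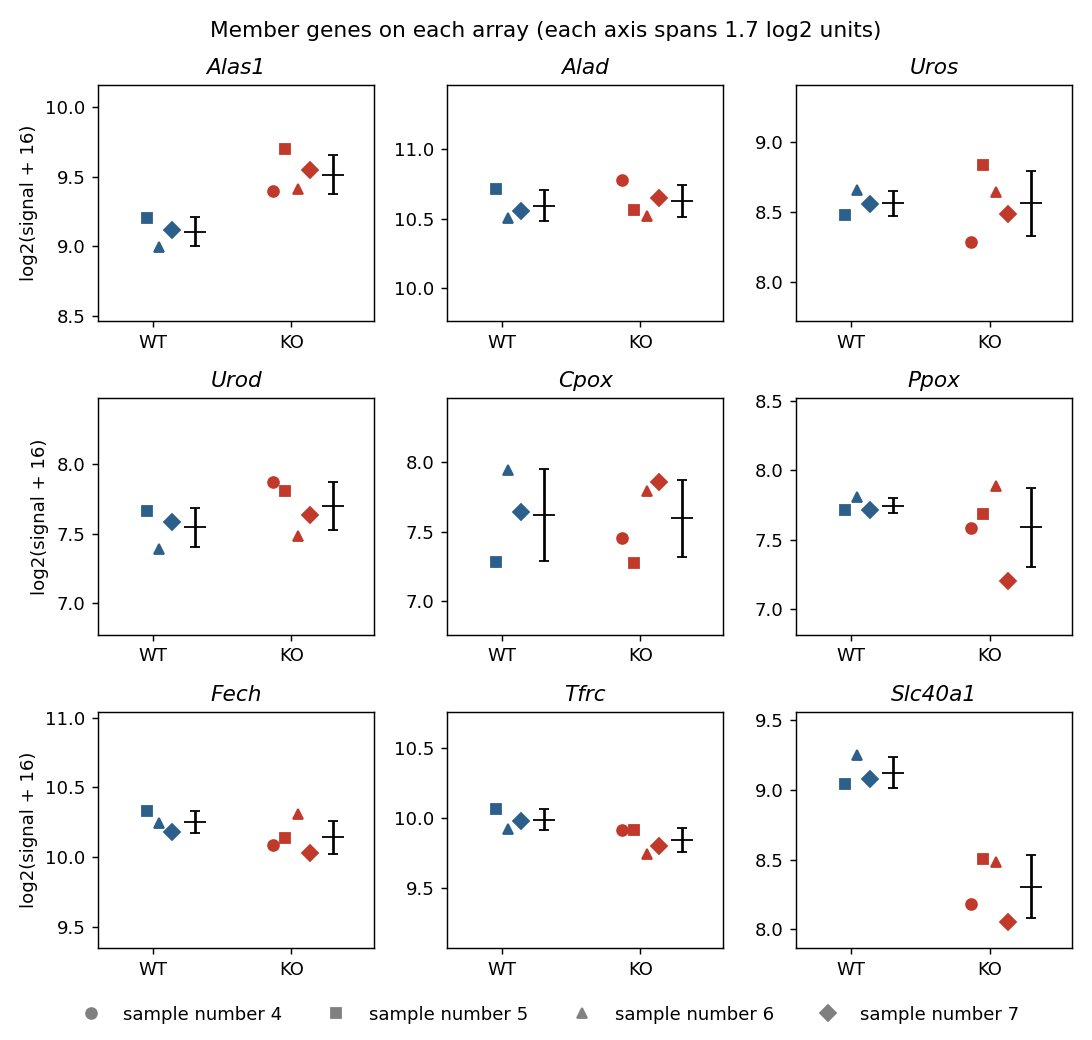
Level of each of the 9 genes on each array, as log2(signal + 16) after quantile normalization, with 1 point per sample (blue WT, n = 3; red KO, n = 4) and black bars for the mean ± SD. Marker shape gives the sample number, and every axis spans the same range. The groups are apart for Slc40a1 (KO 8.30 ± 0.23, WT 9.12 ± 0.11) and Alas1 (KO 9.52 ± 0.14, WT 9.10 ± 0.11), touch for Tfrc and overlap for the other 6 genes.

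At their brightest probe sets, the 6 enzymes downstream of ALAS1 showed differences between -0.16 and 0.15. None was called, with limma's adjusted p between 0.469 and 0.997. Their 95% intervals reached from -0.51 to 0.44 in all, so changes within those bounds could not be told from the spread of these samples.

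Alad, whose product joins pairs of aminolevulinate molecules into porphobilinogen, had log2 levels of 10.78, 10.56, 10.52 and 10.65 in KO and 10.72, 10.51 and 10.56 in WT. The samples were interleaved, and the difference was 0.04 with a 95% interval of -0.20 to 0.27. Uros, whose product closes the porphyrin ring, spanned 8.29 to 8.84 in KO and 8.48 to 8.66 in WT. The KO samples lay on both sides of the WT samples, and the difference was -0.00 with an interval of -0.31 to 0.31. Urod, which encodes the last cytosolic enzyme of the chain before it returns to the mitochondrion, had levels of 7.87, 7.81, 7.48 and 7.64 in KO and 7.66, 7.39 and 7.59 in WT. Its difference of 0.15, with an interval of -0.13 to 0.44, was the most positive of these 6.

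Cpox, whose mitochondrial product oxidises coproporphyrinogen, was the most variable of the 9 genes in WT. Its levels were 7.46, 7.28, 7.80 and 7.86 in KO and 7.28, 7.94 and 7.64 in WT, and the means of 7.60 ± 0.28 (SD, n = 4) and 7.62 ± 0.33 (SD, n = 3) differed by less than either SD. Its other probe set, 1422493_at, differed by 0.21 with an interval of -0.20 to 0.62 and an exact permutation p of 0.286.

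Ppox, whose product makes protoporphyrin IX, had levels of 7.58, 7.69, 7.88 and 7.20 in KO and 7.71, 7.81 and 7.71 in WT at its brighter probe set. KO sample 7 was the low one, and the difference was -0.16 with an interval of -0.51 to 0.20. The dimmer Ppox probe set, 1448065_at, read 7.10, 6.99, 6.62 and 6.01 in KO and 7.23, 7.58 and 7.36 in WT. Here every KO sample lay below every WT sample and the difference was -0.71, with an interval of -1.32 to -0.10. Limma's adjusted p over 20380 probe sets was 0.244 and the exact permutation p 0.0857. In the deposited signals of this probe set, 150.1, 122.6, 86.7 and 49.5 in KO and 135.0, 155.0 and 98.6 in WT, the groups overlapped. When the probe sets of each gene were averaged, the Ppox difference was -0.43, with limma's unadjusted p of 0.043 and adjusted p of 0.193.

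Fech, which encodes ferrochelatase, the enzyme that inserts iron, had levels of 10.09, 10.14, 10.31 and 10.03 in KO and 10.33, 10.24 and 10.18 in WT. The groups overlapped and the difference was -0.11 with an interval of -0.34 to 0.12. Of its 3 other probe sets, 1418698_a_at differed by -0.05 and 1449181_at by -0.02, both with overlapping groups. The last, 1427696_at, was below background on all 7 arrays and has no usable level.

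Tfrc, which encodes the transferrin receptor, had log2 levels of 9.91, 9.92, 9.74 and 9.80 in KO and 10.07, 9.92 and 9.98 in WT at its brightest probe set. All KO samples were at or under the lowest WT sample, with the closest pair equal to 2 decimals. The means were 9.84 ± 0.08 (SD, n = 4) and 9.99 ± 0.08 (SD, n = 3). Tfrc differed by -0.14 ± 0.09 (SE), with an interval of -0.35 to 0.06, limma's adjusted p of 0.36 and an exact permutation p of 0.114. In the deposited signals the sign turned, with a difference of 0.30, close to the shift of the median gene. A second probe set, 1422966_a_at, differed by 0.24 with an exact permutation p of 0.457, so the probe sets of Tfrc did not share a sign. The third, 1422967_a_at, was above background in 2 of 4 KO and 1 of 3 WT samples. The chip also holds 3 control probe sets for Tfrc, of which those for the 5′ end and the middle of the message were below background on all 7 arrays, and the one for the 3′ end differed by 0.31 with an exact permutation p of 0.143.

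Slc40a1, which encodes ferroportin, had log2 levels of 8.18, 8.51, 8.48 and 8.05 in KO and 9.05, 9.25 and 9.08 in WT. Every KO sample lay below every WT sample, with a gap wider than the range within either group. The means were 8.30 ± 0.23 (SD, n = 4) and 9.12 ± 0.11 (SD, n = 3), so WT was 1.77-fold higher. The difference of -0.82 had a 95% interval of -1.13 to -0.51, limma's adjusted p was 0.0236, and the exact permutation p was 0.0286. Among all genes Slc40a1 ranked 91st by p, and its difference lay at percentile 1.11. In bulk RNA, fewer cells that express a gene and less of its RNA per cell cannot be told apart.

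The second Slc40a1 probe set, 1448566_at, read 6.00, 5.72, 5.93 and 5.83 in KO and 6.18, 6.22 and 6.29 in WT. Its groups did not overlap either. The difference was -0.36 with an interval of -0.61 to -0.11, and the exact permutation p was 0.0286. This probe set is dim, and on the log2(signal + 16) scale the change of a dim probe set is understated. How much of the gap between -0.36 and the -0.82 of the brighter probe set comes from this was not tested. Over all 20380 probe sets, of which 0.142% were called, limma's adjusted p was 0.0736 for the brighter Slc40a1 probe set and 0.168 for the dimmer one, and 0 of the 18 member probe sets outside the controls were called.

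**Figure D2:**
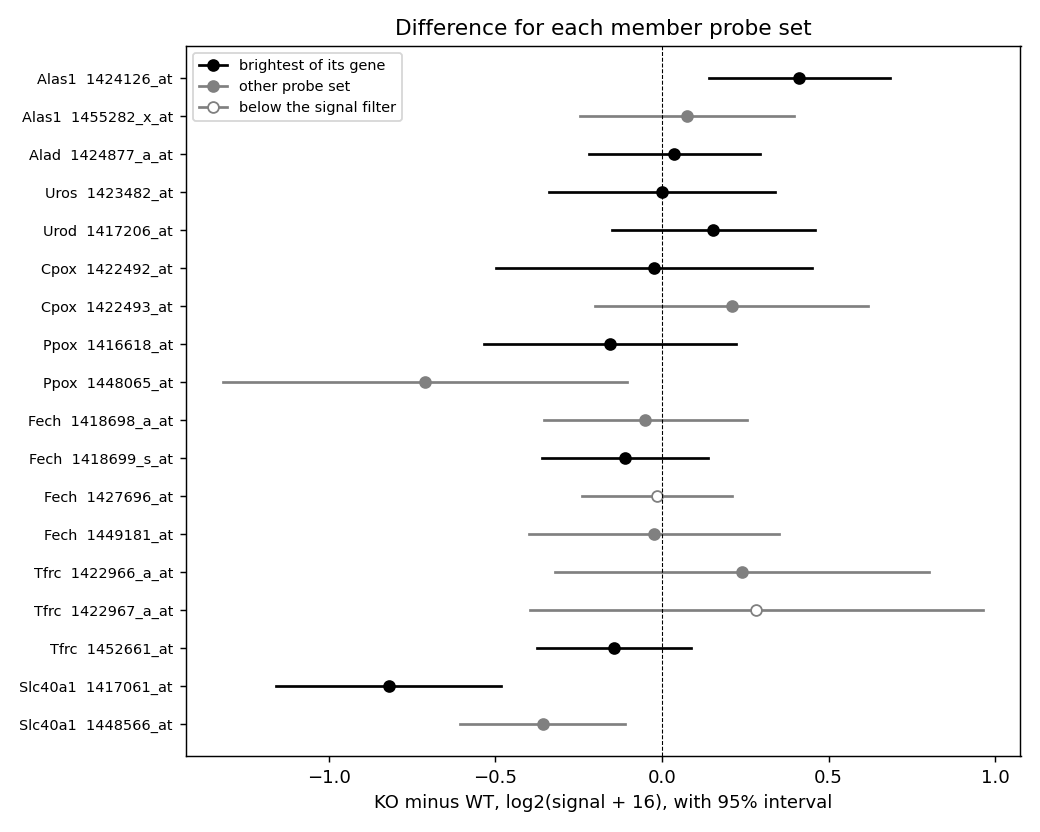
KO minus WT difference in log2(signal + 16) for the 18 member probe sets that are not controls, with 95% intervals from limma on all probe sets without a filter, so the intervals differ slightly from those of the gene-level test. Black points are the brightest probe set of each gene, grey points the others, and open points those under the signal filter. Both Slc40a1 probe sets lie below 0, at -0.82 and -0.36, while those of Alas1 lie at 0.41 and 0.07.

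The Slc40a1 call depended on the sample set and on the scaling. It was lost without KO 4 (limma's adjusted p 0.0507), KO 7 (0.061), WT 5 (0.0532), WT 6 (0.0657) or WT 7 (0.0642), and held without KO 5 (0.0432) or KO 6 (0.0422). The difference itself stayed between -0.88 and -0.74 over these 7 fits. In the deposited signals, 343.6, 395.9, 355.4 and 257.9 in KO and 505.9, 524.8 and 340.7 in WT, the groups overlapped, and WT 7, the dimmest array, fell among the KO samples. There the difference was -0.41 and limma's adjusted p 0.17. With the Actb ratio as a covariate the difference was -0.51 and limma's adjusted p 0.599. That ratio separated the groups, so the fit could hardly split it from genotype, and it called 0 of all 8077 genes.

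With the deposited signals taken as they stand, Alas1 was the 1 member called higher and 0 were called lower, where 17% of genes were called higher and 0.533% lower. The pair of Alas1 and Slc40a1, picked for their opposite differences, can also be described by a ratio within each array, which does not depend on a common brightness factor. The deposited Alas1 signal divided by the deposited Slc40a1 signal was 2.40, 2.39, 1.97 and 2.95 in KO and 1.12, 0.834 and 1.03 in WT. These ratios restate the opposite differences of the pair and add no test of either gene.

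**Figure D3:**
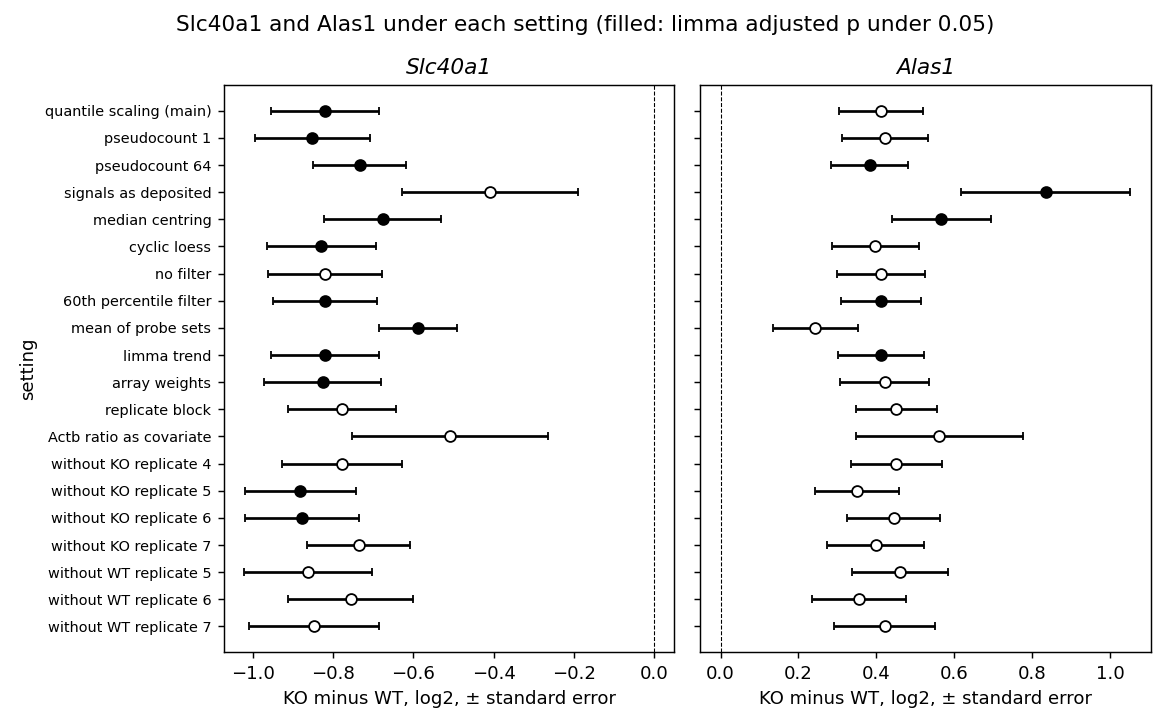
KO minus WT difference of Slc40a1 and Alas1 in log2 units, with SE bars, under quantile scaling and 19 alternatives, of which 7 leave out 1 sample. Filled points have a limma adjusted p under 0.05. Slc40a1 is below 0 and Alas1 above 0 in every row, and Slc40a1 passes the threshold in 10 of the 19 alternatives and Alas1 in 5.

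The other genes of heme metabolism that could be read showed 1 call. Of 23 listed genes of heme synthesis, transport and breakdown outside the 9, 18 were tested, 1 was called higher and 0 lower, with a median of -0.08 that became 0.25 in the deposited signals. Tmem14c, which carries protoporphyrinogen into the mitochondrial matrix for the Ppox step, had levels of 9.83, 9.79, 9.72 and 9.79 in KO and 9.29, 9.49 and 9.42 in WT. It rose by 0.39 ± 0.09 (SE) with limma's adjusted p = 0.0442, and the call was lost without any 1 of the 7 samples, with adjusted p between 0.076 and 0.109. The heme oxygenases, which break heme down, were not called. Hmox1 differed by 0.04 and Hmox2 by 0.22, with limma's adjusted p of 0.957 and 0.323. Slc25a37, the mitochondrial iron importer mitoferrin, differed by -0.22 with an adjusted p of 0.425. Alas2, the erythroid form of the first enzyme, was under the signal filter and was above background in 1 of 4 KO and 3 of 3 WT samples.

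Of 27 listed genes of iron uptake, storage and sensing, 16 were tested, 0 were called higher and 1 lower, with a median of -0.02 that became 0.31 in the deposited signals. Ncoa4, the receptor that delivers ferritin for degradation and so releases stored iron, read 10.81, 10.71, 10.68 and 10.60 in KO and 11.14, 11.14 and 11.19 in WT. It fell by 0.46 on the log2 scale, with limma's adjusted p = 0.0285. In the deposited signals it differed by -0.04 and with median centring by -0.31, with limma's adjusted p of 0.887 and 0.104. The call was lost without any 1 sample, with adjusted p between 0.0507 and 0.0765, and its second probe set differed by 0.17. Fth1, a ferritin subunit, differed by 0.04, and Slc11a2, the importer that moves iron out of endosomes, by -0.12. Aco1 and Ireb2, which encode the iron regulatory proteins that bind the Tfrc and Slc40a1 messages, differed by 0.02 and -0.11. None of these 4 was called, with limma's adjusted p between 0.634 and 0.937. Ftl1 was not analysed here.

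Iron also goes into iron-sulfur clusters, which Fech itself carries. Of 28 listed assembly genes, 18 were tested and none was called by limma. An unadjusted limma p under 0.05 was found for 6 of these 18, against 2047 of all 8077 genes. It was also found for 2 of the 9 members, 3 of the 18 other heme genes and 4 of the 16 other iron genes. The median of the assembly genes was 0.07. In the deposited signals the median was 0.49 with 6 called higher, and with median centring it was 0.22 with 2 called higher. The lowest p-values were those of Nubp1, a cytosolic assembly factor, at 0.52 with limma's adjusted p of 0.059, and Hspa9, a mitochondrial chaperone, at 0.31 with 0.0782. With its probe sets averaged, Nubp1 differed by 0.09 with limma's adjusted p of 0.632.

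Of 18 listed regulators of heme and iron genes, 16 were tested, 0 were called higher and 1 lower. Their median was -0.26, and 0.14 in the deposited signals. At an unadjusted limma p under 0.05 were 8 of the 16, against 2047 of all 8077 genes. Maff, a small Maf protein that pairs with BACH1 and NRF2 on DNA, read 6.01, 5.74, 6.08 and 5.74 in KO and 7.07, 6.67 and 6.86 in WT. It fell by 0.98 on the log2 scale with limma's adjusted p = 0.017, and it was still called without 5 of the 7 samples in turn, with adjusted p of up to 0.0537. Bach1, a heme-sensing repressor of heme oxygenase and ferroportin genes, differed by -0.39 with limma's adjusted p of 0.0818, and by 0.04 in the deposited signals. Myc differed by 0.28 with an adjusted p of 0.384.

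**Figure D4:**
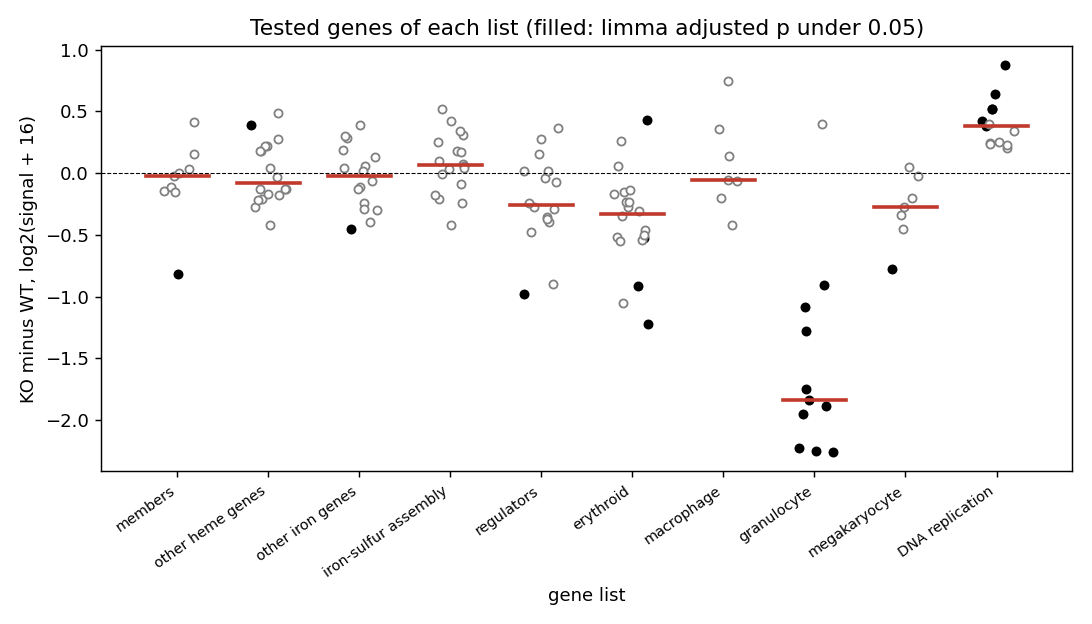
KO minus WT difference in log2(signal + 16) for the tested genes of each list, 1 point per gene, filled where limma's adjusted p was under 0.05, with a red line at the list median. The 9 members and the other heme, iron and iron-sulfur genes are spread around 0, with medians between -0.08 and 0.07, while 10 of 11 granulocyte genes lie below 0 and all 13 replication genes above it.

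Markers of other cell types were read beside the Slc40a1 and Alas1 differences, and their part in those differences was not tested. Of 34 erythroid genes, 20 were tested, with 1 called higher and 3 lower. At an unadjusted limma p under 0.05 were 15 of the 20, against 2047 of all 8077 genes. Among the 20, 3 differences lay above 0 and 17 below it. The median was -0.33, and -0.03 in the deposited signals. The listed erythroid genes had a summed normalized signal between 12640 and 14144 in the KO samples. In the WT samples this sum lay between 15450 and 17862, so the groups did not overlap. Lmo2 alone made up 39.9% to 48.8% of the sum. With Lmo2 left out the groups stayed apart, since the highest KO sum, 7628, lay below the lowest WT sum, 8645. Ermap, an erythroid membrane protein, Gfi1b and Zfpm1, transcription factors of the erythroid and megakaryocyte lineages, fell, with differences of -1.22, -0.92 and -0.52 and limma's adjusted p of 0.0225, 0.0344 and 0.0268. Hba-a2, an alpha globin gene, rose by 0.43 with an adjusted p of 0.0328. Leaving out 1 sample gave 0 to 3 calls in place of these 4. Car1, Klf1 and Gata1 differed by -1.05, -0.46 and -0.16, none called, with limma's adjusted p between 0.0602 and 0.471. Slc4a1 was under the signal filter in the gene test. Its probe set 1434502_x_at differed by -2.24, with limma's adjusted p of 0.0441 over all 20380 probe sets. It was above background in 1 of 4 KO and 3 of 3 WT samples. The other Slc4a1 probe sets differed by -0.89 and -0.02. Hbb-bh1 was below background on all arrays, and Hba-a1 was above it in 1 KO sample and 0 WT samples.

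Of 18 macrophage genes, 7 were tested and none was called by limma. At an unadjusted limma p under 0.05 were 2 of these 7, against 2047 of all 8077 genes. Macrophage genes had 3 differences above 0, 4 below it and a median of -0.05. The median became 0.30 in the deposited signals of these macrophage genes and 0.03 with median centring. Their summed signals were 3967 to 6347 in KO and 2719 to 3833 in WT, but Csf1r made up 72.8% to 87.6% of each sum. Without it the sums overlapped, at 699 to 839 in KO and 738 to 807 in WT. Csf1r, the receptor for macrophage colony-stimulating factor, differed by 0.75 and Cd163, a hemoglobin scavenger receptor, by 0.35, with limma's adjusted p of 0.0828 and 0.174. The other 5 lay between -0.42 and 0.14, with Spic lowest and C1qb, Cd68 and Vcam1 also below 0, and Marco was below background on all arrays.

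The widest difference was in granulocyte genes, where 11 of 15 were tested, 0 were called higher and 10 lower. Their median was -1.83, and -1.40 in the deposited signals, and their summed signal lay between 10396 and 14384 in the KO samples and between 31569 and 43794 in the WT samples. Ngp, Camp, Ltf, Chil3, Lcn2 and S100a8, all granule or cytosolic proteins of neutrophils, had the lowest p-values and fell. Their differences were -1.89, -1.83, -2.25, -1.95, -2.26 and -1.08, with limma's adjusted p of at most 0.0114. Itgam, the 1 tested granulocyte gene above 0, differed by 0.40 and was not called, with limma's adjusted p of 0.0657. Megakaryocyte genes had 1 call of 7 tested, with Plek lower by 0.78 (difference -0.78, limma's adjusted p 0.0413), a median of -0.28 that became 0.16 in the deposited signals, and summed signals of 3062 to 4677 in KO and 5523 to 5843 in WT. Plek made up 54.3% to 69.5% of the sum, which overlapped between the groups without it, and was called in 1 of the 7 fits that left out a sample. Of the lymphoid genes only Cd79b passed the signal filter, at -0.12 with limma's adjusted p of 0.514. Cd3e, Cd3g and Cd79a were below background on all arrays. The summed lymphoid signal ranged from 428 to 468 in the KO samples and from 499 to 550 in the WT samples, with 64.5% to 78.8% of it from Cd79b, and the rest, from probe sets under the filter, overlapped between the groups.

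Of 10 genes of the LSK gate and of stem cells, 7 were tested and 2 were called lower, with a median of -0.36 that became 0.07 in the deposited signals. These were Hlf, a stem cell transcription factor, at -0.84 with limma's adjusted p of 0.0107, and Kit, at -0.43 with 0.0467 and at 0.01 in the deposited signals. Kit was not called once any 1 sample was left out, and Hlf was called in all 7 such fits. In the deposited signals Hlf differed by -0.40 and was not called, with limma's adjusted p of 0.176. Of 15 listed DNA replication genes, 13 were tested and 6 were called higher. All 13 were above 0 and the median was 0.38. In the deposited signals the median was 0.76 with 9 called. Without a filter 0 of 14 were called by limma, with 11 at an unadjusted p under 0.05, against 2218 of all 12393 genes. The 6 were Mcm5, Mcm2, Rrm1, Rrm2, Pcna and Cdk1, which rose by 0.38 to 0.87 on the log2 scale with limma's adjusted p of at most 0.0483, and leaving out 1 sample left 0 to 3 calls. The part of these groups of genes in the Alas1 and Slc40a1 differences was not tested.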

How the data were processed

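Signal intensities per probe set, on a linear scale, were used as deposited by the authors. They were made with MAS5, per the submitters' processing notes, with settings and scaling not given in the sources used here. Of the 22690 probe sets, whose number is not that of the chip design named in the labels, 64 are controls, 20380 have 1 gene symbol, 691 several and 1555 none.

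Signals were quantile normalized over the non-control probe sets, and 16 was added before log2. Probe sets with a mean above percentile 40 were kept, and the brightest probe set with 1 symbol stood for its gene. Differences were tested with limma 3.58.1 in R 4.3.3 on all 7 samples (genotype only), with Benjamini-Hochberg adjustment over 8077 genes. Background was percentile 95 of 189 readings of 27 control probe sets, 13.64. No counts exist, so the number of arrays limits the precision. The test was checked on simulated data. It recovered 83 of 100 changes of 1 log2 unit but only 31 of 100 changes of 0.5, with 6 false calls among 120 calls.

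The members and gene lists were chosen with earlier results of these data known. Genes named are all members, Stk11, from each list every called gene (or the 6 of lowest p where more were called, the 2 of lowest p where none was), and Alas2, Hmox1, Hmox2, Fth1, Ftl1, Slc25a37, Slc11a2, Aco1, Ireb2, Bach1 and Myc. Spic, C1qb, Cd68, Vcam1, Itgam, Lmo2, Hba-a1, Car1, Klf1, Gata1 and Slc4a1 were named after their values were seen. Some items are not reported here. Marker genes called absent or present are those listed for each cell type. Alternatives covered the pseudocount, scaling, filter, probe set rule, variance model, array weights, replicate block, Actb ratio and each sample left out.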

Additional observations from a re-analysis of the deposited data

Results flagged for a closer look

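Among the 4 KO samples, 4 of 44 probe set or gene values tested had 1 sample far from the others by Dixon's ratio of gap to range at the 95% level. Chance marks about 1 in 20 such groups, and the 3 WT samples are too few for this test. For the second Alas1 probe set, 1455282_x_at, the ratio was 0.878 and the distant sample was KO 5, at 7.34 on the log2 scale. For Kit it was 0.838, also with KO 5 high, at 10.49. For Aco1 it was 0.892 with KO 7 high, at 10.73, and for Slc11a2 it was 0.921 with KO 7 low, at 5.81. None of the brightest probe sets of the 9 members was among them.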

How the results depend on the processing

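Over 19 alternatives, 130 of 171 values of the 9 members kept sign and side of the threshold, 5 passed it and 9 lost it. Slc40a1 and Alas1 kept their sign in all 19. The number of members called, 1 in the report, was 2 with pseudocount 64, median centring, a filter at percentile 60 or limma's trend, and 0 without a filter, with the replicate block or with the Actb ratio as a covariate. It was 0 to 1 when 1 sample was left out. Genes called over all genes, 437 in the report, numbered 694 with pseudocount 64, 1415 as deposited (97% of them higher, against 45.5% in the report and 76.7% with median centring), 711 with median centring, 56 without a filter, 711 with a filter at percentile 60, 888 with limma's trend, 1 with the replicate block, 0 with the Actb covariate (713 at an unadjusted p under 0.05 in limma), and 43 to 193 when 1 sample was left out. Same-numbered samples deviated together weakly (correlations 0.03, 0.10 and 0.05), and the labels do not say what the numbers share, so the samples were not treated as pairs. With the replicate block Slc40a1 differed by -0.78, with limma's adjusted p of 0.108. Signs turned only for genes that were not called, except Kit. As deposited, the differences were 0.392 for Uros, 0.34 for Cpox, 0.21 for Ppox, 0.336 for Fech, 0.296 for Tfrc, 0.0124 for Kit, 0.187 for Slc25a37, 0.0398 for Bach1, 0.282 for Ireb2 and 0.144 for Slc11a2. With median centring they were 0.124 for Uros, 0.072 for Cpox, 0.0685 for Fech, 0.0281 for Tfrc, 0.0143 for Ireb2 and -0.0494 for Hmox1. With the mean of probe sets they were 0.0931 for Cpox, 0.048 for Tfrc and -0.0482 for Fth1. With the replicate block they were -0.0143 for Alad, 0.0913 for Uros, 0.0231 for Cpox and -0.195 for Hmox1. With the Actb covariate they were -0.106 for Alad, 0.319 for Uros, 0.208 for Ppox, 0.109 for Fech, -0.0341 for Fth1, -0.0458 for Aco1 and -1.05 for Hmox1. With pseudocount 1 Hmox1 was -0.0422, and with pseudocount 64 Uros was 0.00036. Leaving out 1 sample, the ranges were -0.0137 to 0.0989 for Alad, -0.0929 to 0.0905 for Uros, -0.193 to 0.137 for Cpox, -0.0737 to 0.0815 for Aco1, -0.0842 to 0.367 for Hmox1 and -0.245 to 0.0333 for Slc11a2. The causes were not tested.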
